A study of Mus musculus with 9 samples.

Results

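The enzymes of the pentose phosphate pathway were followed by RNA-seq in mouse embryonic fibroblasts that overexpressed Zscan4f, in those that overexpressed Zscan4f3A and in control cells. The members were all 7 genes whose name in the files was G6pdx, Pgls, Pgd, Rpia, Rpe, Tkt or Taldo1, of 54986 gene IDs in all. Each name was found once, and all 7 passed the filter on low values (a TPM of 1 or more in 3 or more libraries).

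The pathway branches off glycolysis at glucose 6-phosphate. Its oxidative arm (glucose-6-phosphate dehydrogenase, 6-phosphogluconolactonase and 6-phosphogluconate dehydrogenase) makes NADPH and the pentose ribulose 5-phosphate, while its non-oxidative arm interconverts pentose phosphates and returns carbon to glycolysis. Dividing cells use its ribose 5-phosphate for nucleotides and its NADPH for lipid synthesis and for the reduction of glutathione and thioredoxin.

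All cells were labelled D4-OSKM-2ndMEFs, primary embryonic fibroblasts of C57BL/6 mice, and there were 3 libraries each of Zscan4f overexpression, Zscan4f3A overexpression and control, all from total RNA. OSKM is the usual name for the reprogramming factors Oct4, Sox2, Klf4 and c-Myc, and it stands in the label of every group, control included. Zscan4f encodes a protein with a SCAN domain and zinc fingers, from a gene family known for brief expression in the early mouse embryo and in embryonic stem cells. The title of the series names the SCAN domain as a partner of Tet2 during reprogramming, and Zscan4f3A is a form of Zscan4f by its label, but its sequence is not stated there. The control titles name no overexpressed gene and no empty vector, nor do the labels name the promoter or vector behind the overexpression. Nothing in the labels says that the 3 libraries of a group came from separate cultures, so the p-values measure the spread between these libraries, which may be technical.

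Zscan4f itself stood at 570, 565 and 558 TPM in the Zscan4f libraries, at 827, 836 and 654 TPM in the Zscan4f3A libraries and at 0.330, 0.0 and 0.960 TPM in the control libraries (TPM is an abundance per transcript length that sums to the same total in each library). These levels match the labels, although reads from its close paralogs cannot be kept apart with certainty. The aligned sequence ran from 7.48 to 8.39 gigabases in the Zscan4f libraries, from 3.31 to 8.38 in the Zscan4f3A libraries and from 6.60 to 8.26 in the control libraries, with Zscan4f3A replicate 3 the lowest. The 12 fibroblast markers summed to 13907 to 14097 TPM with Zscan4f, 13715 to 14057 TPM with Zscan4f3A and 13831 to 13860 TPM in control, and with Zscan4f 3 of the 12 were higher and 6 lower than in control. Epithelial markers, 8 of 12 tested and 6 of these higher with Zscan4f, summed to 144 to 153 TPM with Zscan4f, 65.2 to 69.6 TPM with Zscan4f3A and 62.9 to 66.3 TPM in control. Of that list Cldn7, Esrp1, Grhl2 and Ovol1 were under 1 TPM in every library. The 6 keratinocyte markers summed to 91.4 to 99.0 TPM with Zscan4f, 39.3 to 42.2 TPM with Zscan4f3A and 32.0 to 35.1 TPM in control, and of 4 tested 2 were higher and 1 lower with Zscan4f than in control. The 7 macrophage markers summed to 26.1 to 27.7, 18.4 to 20.6 and 18.7 to 21.3 TPM in the Zscan4f, Zscan4f3A and control libraries, with Ptprc, Adgre1 and Csf1r under 1 TPM in every library, and of 4 tested 1 was higher and 1 lower with Zscan4f than in control. The 6 endothelial markers summed to 60.0 to 63.6, 44.7 to 49.8 and 46.3 to 48.3 TPM in the Zscan4f, Zscan4f3A and control libraries, with Pecam1, Cdh5 and Kdr under 1 TPM in every library. Of the 3 tested, 2 were higher with Zscan4f than in control (Tek and Flt1) and 1 lower (Erg). The 7 erythroid markers summed to at most 2.26 TPM in any library. Over all genes tested, 8.74% were called higher and 9.71% lower with Zscan4f than in control. Single genes weighed heavily in the epithelial, keratinocyte, macrophage and endothelial sums. In the epithelial list Krt8 had a mean of 78.5 TPM with Zscan4f and 20.2 TPM in control. In the keratinocyte list Krt14 had 85.3 and 28.5 TPM, while Krt5 (0.577 and 1.25 TPM) and Ivl (0.736 and 1.15 TPM) had lower means with Zscan4f. The epithelial, keratinocyte, macrophage and endothelial sums were higher in every Zscan4f library than in every other library, and their part in the results on the pathway was not tested. In bulk RNA, fewer cells of a type and less RNA per cell cannot be told apart.

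With Zscan4f, 3 of the 7 enzymes were higher than in control and none (0) lower: Pgd and G6pdx, which hold the NADPH-producing steps of the oxidative arm, and Taldo1 of the non-oxidative arm. Their rises were small, between 1.15-fold and 1.20-fold. No difference was detected in Pgls, Tkt, Rpe or Rpia. Over all 15837 genes tested, 18.5% were called in this comparison, 8.74% as higher and 9.71% as lower (limma, Benjamini-Hochberg adjusted p under 0.05). The 7 enzymes had a median log2 fold change of 0.10, against -0.0029 over all genes tested.

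Pgd (ENSMUSG00000028961.15, chromosome 4 from 149149991 to 149166771, minus strand, GRCm38) encodes 6-phosphogluconate dehydrogenase, which yields NADPH and ribulose 5-phosphate. Its level was 293, 302 and 301 TPM in the Zscan4f libraries, 249, 245 and 245 TPM in the Zscan4f3A libraries and 248, 253 and 243 TPM in the control libraries. Every Zscan4f library lay above every other library, while the Zscan4f3A and control libraries overlapped. The means were 299 ± 4.77 TPM with Zscan4f, 246 ± 2.14 TPM with Zscan4f3A and 248 ± 4.78 TPM in control (SD, n = 3 each). The rise over control was 0.27 ± 0.03 on the log2(TPM + 1) scale (SE), or 1.20-fold (limma adjusted p = 0.000356). Pgd thus had the smallest adjusted p of the 7, and it was called in all 21 alternative analyses.

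G6pdx (ENSMUSG00000031400.10, chromosome X from 74409483 to 74429194, minus strand) encodes glucose-6-phosphate dehydrogenase, the rate-limiting entry into the pathway. It had 163, 159 and 163 TPM in the Zscan4f libraries, 153, 141 and 144 TPM in the Zscan4f3A libraries and 142, 146 and 135 TPM in the control libraries. The Zscan4f libraries lay above the other 6, and those of Zscan4f3A and control overlapped. The means were 162 ± 2.04, 146 ± 6.31 and 141 ± 5.60 TPM with Zscan4f, with Zscan4f3A and in control (SD, n = 3 each), and the rise with Zscan4f over control was 0.20 ± 0.04 on the log2 scale, or 1.15-fold (limma adjusted p = 0.0137). Against Zscan4f3A the difference of 0.15 ± 0.04 missed the threshold (limma adjusted p = 0.0541), with a range of 0.023 to 0.155 over the 21 alternatives. It passed in 4 of them: without Zscan4f3A replicate 1 (adjusted p = 0.0351), with the filter at TPM of 5 (0.0462), on protein-coding genes alone (0.0457) and on mean read depth in place of TPM (0.023). The gene lies wholly within Ikbkg on the opposite strand, with which it shares 418 of its 3080 exon bases. Ikbkg had 48.0 ± 5.91, 37.4 ± 5.24 and 39.5 ± 7.81 TPM with Zscan4f, with Zscan4f3A and in control, and since no source here states whether counting used the strand, some reads of the pair cannot be told apart. The retrogene copy G6pd2 was listed at or near 0 in every library.

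Pgls (ENSMUSG00000031807.10, chromosome 8 from 71592176 to 71601092, plus strand), the lactonase between these enzymes, varied more within groups than the others did. It had 81.2, 113 and 119.9 TPM in the Zscan4f libraries, 91.2, 148 and 112 TPM in the Zscan4f3A libraries and 106, 109 and 129 TPM in the control libraries. All 3 groups overlapped, and the difference between Zscan4f and control of -0.14 ± 0.19 on the log2 scale had a 95% interval from -0.58 to 0.30 (limma adjusted p = 0.685). Without Zscan4f replicate 1 its sign turned, to 0.03. Pgls shares 776 of 3770 exon bases with Fam129c on the same strand, which stood at 9.35 ± 0.475, 10.6 ± 1.53 and 8.80 ± 0.787 TPM with Zscan4f, with Zscan4f3A and in control.

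In the non-oxidative arm, Taldo1 (ENSMUSG00000025503.5, chromosome 7 from 141392199 to 141402968, plus strand) encodes transaldolase, which moves a three-carbon unit between sugar phosphates. Its level was 212, 203 and 204 TPM in the Zscan4f libraries, 184, 189 and 173 TPM in the Zscan4f3A libraries and 185, 179.7 and 171 TPM in the control libraries. As for Pgd, every Zscan4f library lay above the other 6, which were mixed. The means were 206 ± 5.23, 182 ± 8.41 and 179 ± 6.98 TPM with Zscan4f, with Zscan4f3A and in control (SD, n = 3 each). The rise with Zscan4f over control was 0.21 ± 0.05 on the log2 scale, or 1.16-fold (limma adjusted p = 0.0133). It was called in every alternative but the fit without a filter on low values (adjusted p = 0.0542).

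Tkt (ENSMUSG00000021957.7, chromosome 14 from 30548359 to 30574720, plus strand) encodes transketolase, which transfers two-carbon units and works with transaldolase. It had 125, 126 and 136 TPM in the Zscan4f libraries, 113, 126 and 136 TPM in the Zscan4f3A libraries and 121, 121 and 117 TPM in the control libraries. The Zscan4f libraries lay above the control libraries without overlap, yet the difference of 0.10 ± 0.07 on the log2 scale did not pass the test (limma adjusted p = 0.343, 95% interval from -0.05 to 0.25). The Zscan4f3A libraries spanned both groups.

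Rpe (ENSMUSG00000026005.15, chromosome 1 from 66700831 to 66719805, plus strand), the epimerase that makes xylulose 5-phosphate, had 36.4, 35.6 and 37.7 TPM with Zscan4f, 35.5, 32.1 and 32.9 TPM with Zscan4f3A and 36.1, 35.7 and 36.9 TPM in control. Zscan4f and control overlapped, while the Zscan4f3A libraries lay just below both. The difference between Zscan4f and control was 0.01 ± 0.05 on the log2 scale (95% interval from -0.11 to 0.13, limma adjusted p = 0.913). The last 558 of its 3113 exon bases are shared with Kansl1l on the opposite strand, which had 7.26 ± 0.371, 9.46 ± 0.562 and 9.98 ± 0.730 TPM with Zscan4f, with Zscan4f3A and in control.

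Rpia (ENSMUSG00000053604.5, chromosome 6 from 70765720 to 70792232, minus strand), the isomerase that makes ribose 5-phosphate, was the least abundant member, at 14.9, 12.1 and 16.1 TPM with Zscan4f, 15.7, 13.0 and 13.3 TPM with Zscan4f3A and 16.0, 15.5 and 15.4 TPM in control. The groups overlapped. The difference between Zscan4f and control was -0.12 ± 0.11 on the log2 scale (95% interval from -0.37 to 0.13, limma adjusted p = 0.51), so a change of the size seen in Pgd or Taldo1 in the upward direction lay outside the interval.

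**Figure D1:**
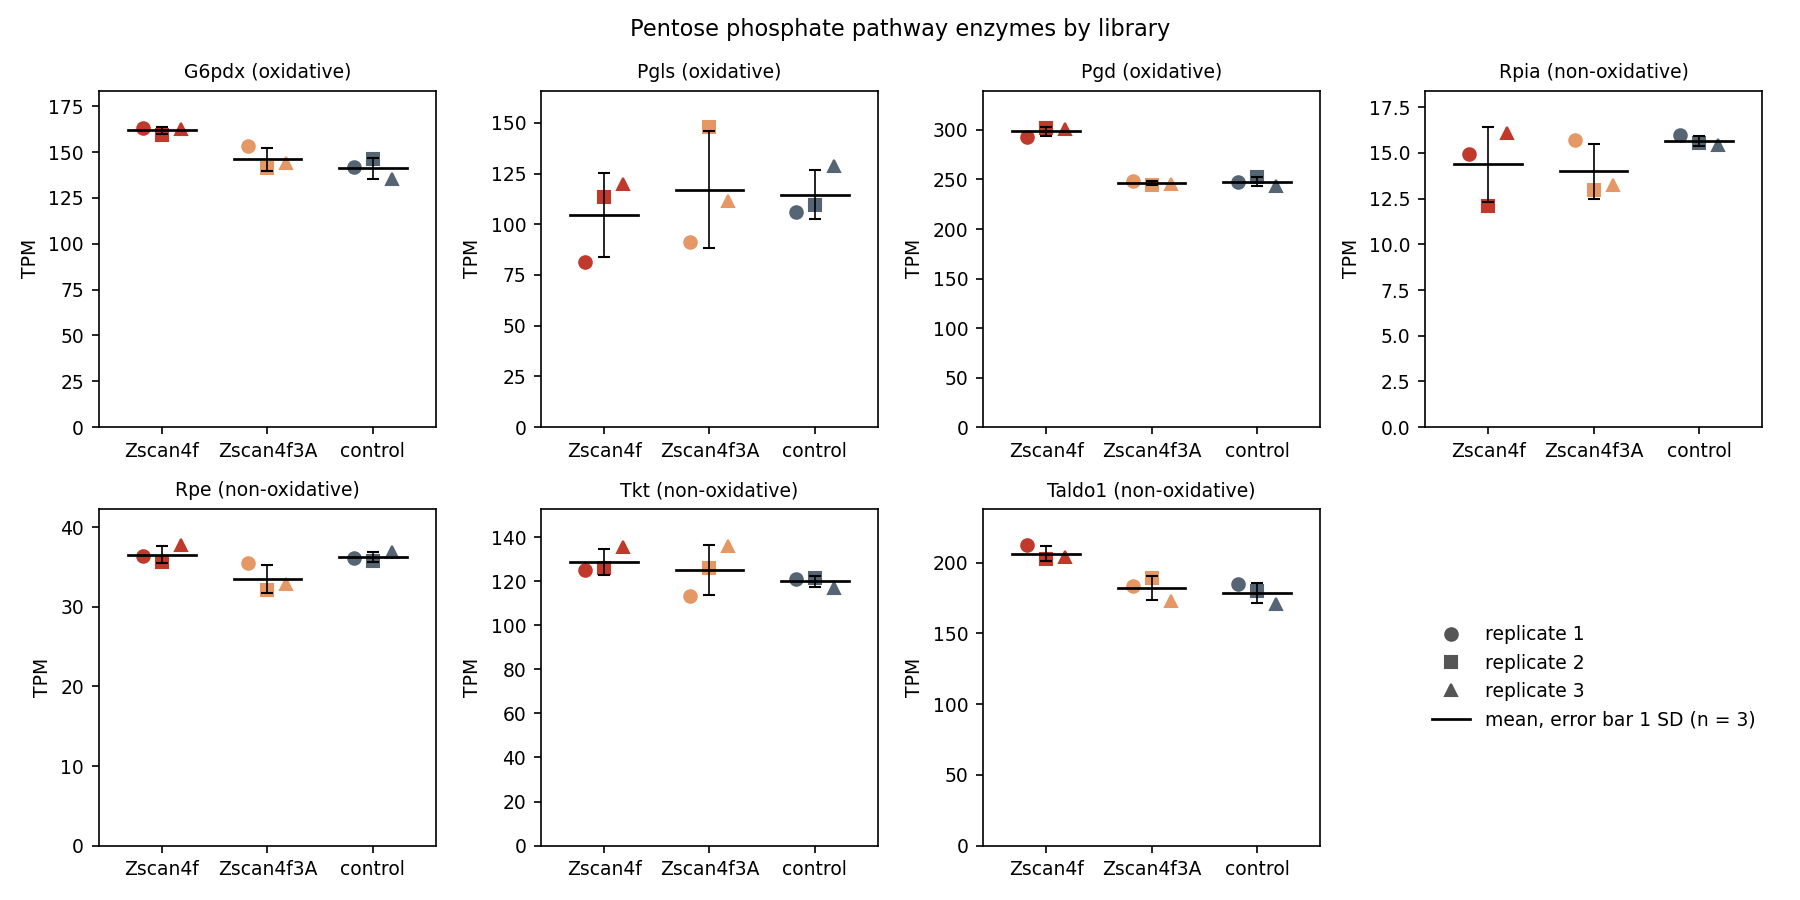
TPM of the 7 enzymes in each library (points, marked by replicate), with the group mean as a line and 1 SD as error bar (n = 3), for Zscan4f, Zscan4f3A and control from left to right. The Zscan4f libraries stand above all others in Pgd, G6pdx and Taldo1, with means of 299, 162 and 206 TPM, while the groups overlap in Pgls and Rpia.

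With Zscan4f3A against control, 0 of 7 enzymes were called. Over all genes tested 0.0316% were called in this comparison, that is 5 genes by limma (0.0189% as higher and 0.0126% as lower), and the unadjusted p was under 0.05 in 1389 genes and in 0 of the 7 enzymes. The differences on the log2 scale were 0.05 in G6pdx (95% interval from -0.05 to 0.15), 0.01 in Pgls (-0.44 to 0.45) and -0.01 in Pgd (-0.08 to 0.06). In the non-oxidative arm they were -0.16 in Rpia (-0.40 to 0.09), -0.11 in Rpe (-0.23 to 0.01), 0.06 in Tkt (-0.09 to 0.21) and 0.03 in Taldo1 (-0.08 to 0.13). The interval of Pgd reached 0.06 at its upper end, below the 0.27 measured with Zscan4f, whereas that of Pgls was too wide to separate a change of such a size from none. The sign of the Pgd, Pgls, Tkt and Taldo1 differences turned with the scaling or with the library left out. Both comparisons against control used the same 3 control libraries.

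With Zscan4f set directly against Zscan4f3A, 2 of 7 enzymes were higher, Pgd and Taldo1, and 0 lower. In this comparison 15.1% of all genes tested were called, 7.48% as higher and 7.64% as lower. Pgd differed by 0.28 ± 0.03 on the log2 scale, or 1.21-fold (limma adjusted p = 0.000477), and was called in all 21 alternatives. Taldo1 differed by 0.18 ± 0.05 on the log2 scale, or 1.14-fold (limma adjusted p = 0.0294), but 9 of the 21 alternatives ended the call, with adjusted p between 0.0227 and 0.107 over all of them. Those included leaving out Zscan4f replicate 1 (0.0961), 2 (0.0609) or 3 (0.072), or Zscan4f3A replicate 1 (0.0613) or 3 (0.0664), with the difference itself between 0.15 and 0.21. Of the enzymes not called, Rpe differed by 0.12 (95% interval from 0.01 to 0.24, adjusted p = 0.148), and its Zscan4f libraries all lay above its Zscan4f3A libraries, by a narrow margin. The differences in Tkt (0.05, -0.10 to 0.19), Rpia (0.03, -0.21 to 0.28) and Pgls (-0.15, -0.59 to 0.29) had intervals across 0.

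**Figure D2:**
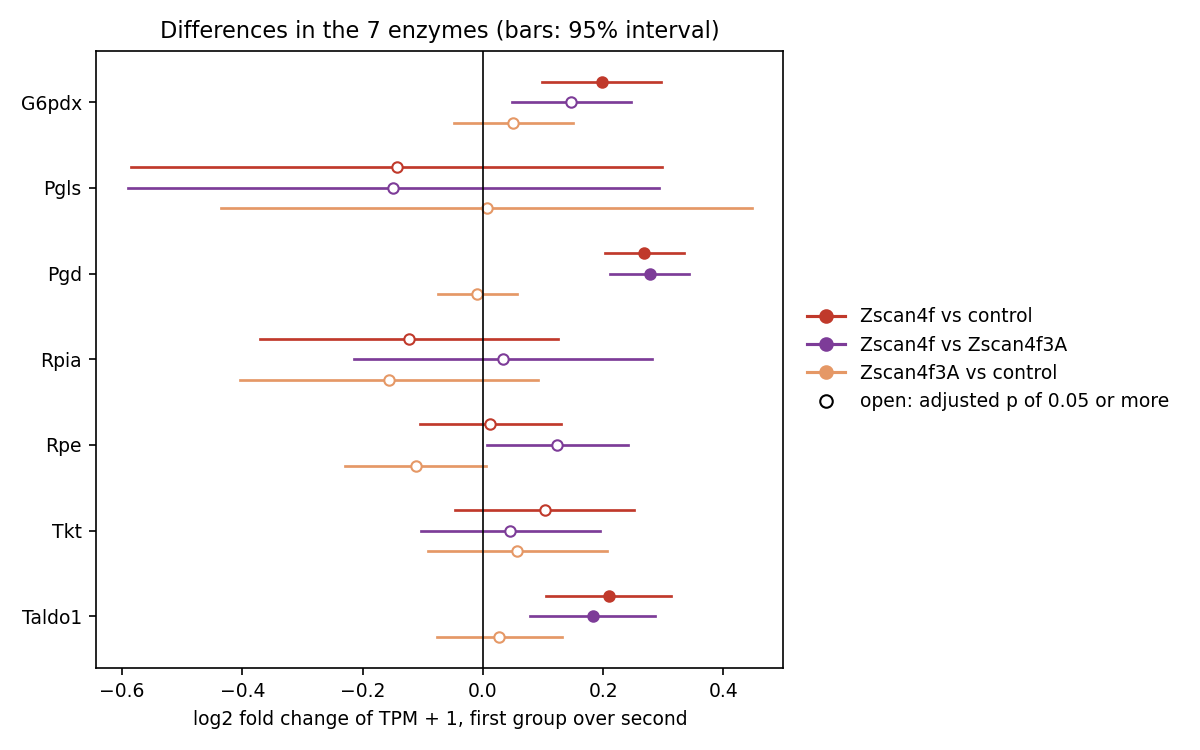
Log2 fold change of TPM + 1 in the 7 enzymes for Zscan4f against control, Zscan4f against Zscan4f3A and Zscan4f3A against control, with 95% intervals as bars and filled points for an adjusted p under 0.05. Pgd at 0.27 and 0.28 stands clear of 0 in both comparisons of Zscan4f, and the Zscan4f3A against control points all have intervals across 0.

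Levels were compared between the enzymes per transcript length, in TPM. In control the order was Pgd (248 TPM), Taldo1 (179 TPM), G6pdx (141 TPM), Tkt (119.8 TPM), Pgls (115 TPM), Rpe (36.2 TPM) and Rpia (15.7 TPM). Each step in that order exceeded the spread between libraries except the step from Tkt to Pgls, whose control libraries overlapped. By mean TPM over the 9 libraries, Pgd ranked 510 and Taldo1 781 among the 15837 genes tested, and Rpia 8513. The 7 enzymes summed to 951 ± 25.6 TPM with Zscan4f, 864 ± 27.3 TPM with Zscan4f3A and 854 ± 6.83 TPM in control (SD, n = 3 each). The isomerase and the epimerase thus stood far below the dehydrogenases and the transferases in every group.

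The arms were also summed within each library. The ratio of summed oxidative to summed non-oxidative TPM was 1.46 ± 0.0738 with Zscan4f, 1.44 ± 0.0402 with Zscan4f3A and 1.44 ± 0.0525 in control, with overlapping libraries. The Pgd to G6pdx ratio was 1.85 ± 0.0478 with Zscan4f, 1.69 ± 0.0575 with Zscan4f3A and 1.76 ± 0.0368 in control. Its Zscan4f libraries ran from 1.80 to 1.89 and its control libraries from 1.73 to 1.80, with a slight overlap. Pgd made up 31.4 ± 0.518% of the summed TPM of the 7 enzymes with Zscan4f, 28.5 ± 1.09% with Zscan4f3A and 29.0 ± 0.329% in control. These sums and ratios are descriptions and were not tested.

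The files also give coverage, the mean read depth over a gene, and for Tkt and Pgls its ratio to the length-corrected values varied more between libraries than for the other 5 enzymes. Divided by aligned gigabases, Tkt coverage was 18.7, 18.3 and 19.6 with Zscan4f, 17.0, 16.8 and 16.0 with Zscan4f3A and 17.6, 17.4 and 16.4 in control, so that Zscan4f3A replicate 3, highest in TPM among the 9 libraries, was lowest in coverage. The ratio of coverage per gigabase to FPKM (fragments per kilobase of transcript, scaled to library size) in Tkt was 0.29 in that library and 0.338 to 0.381 in the other 8. For Pgls the ratio ran from 0.243 to 0.317, whereas for Pgd it kept within 0.339 and 0.343 and for Taldo1 within 0.419 and 0.432. An analysis of coverage in place of TPM was chosen after these values were seen, with coverage scaled to the same total in each library. In it Tkt differed between Zscan4f and Zscan4f3A by 0.19 ± 0.05 on the log2 scale (limma adjusted p = 0.0217). In that comparison 4 of the 7 enzymes were called, as were 2960 of the 15837 genes tested, against 2395 on TPM. Pgd differed from control by 0.28 ± 0.02 with Zscan4f in the analysis of coverage. The annotation lists 9 transcripts for Tkt, 5 each for Pgls, Pgd, Rpe and Taldo1, 4 for G6pdx and 3 for Rpia. Whether the split between the transcripts of Tkt or of Pgls moved with the groups was not tested.

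**Figure D3:**
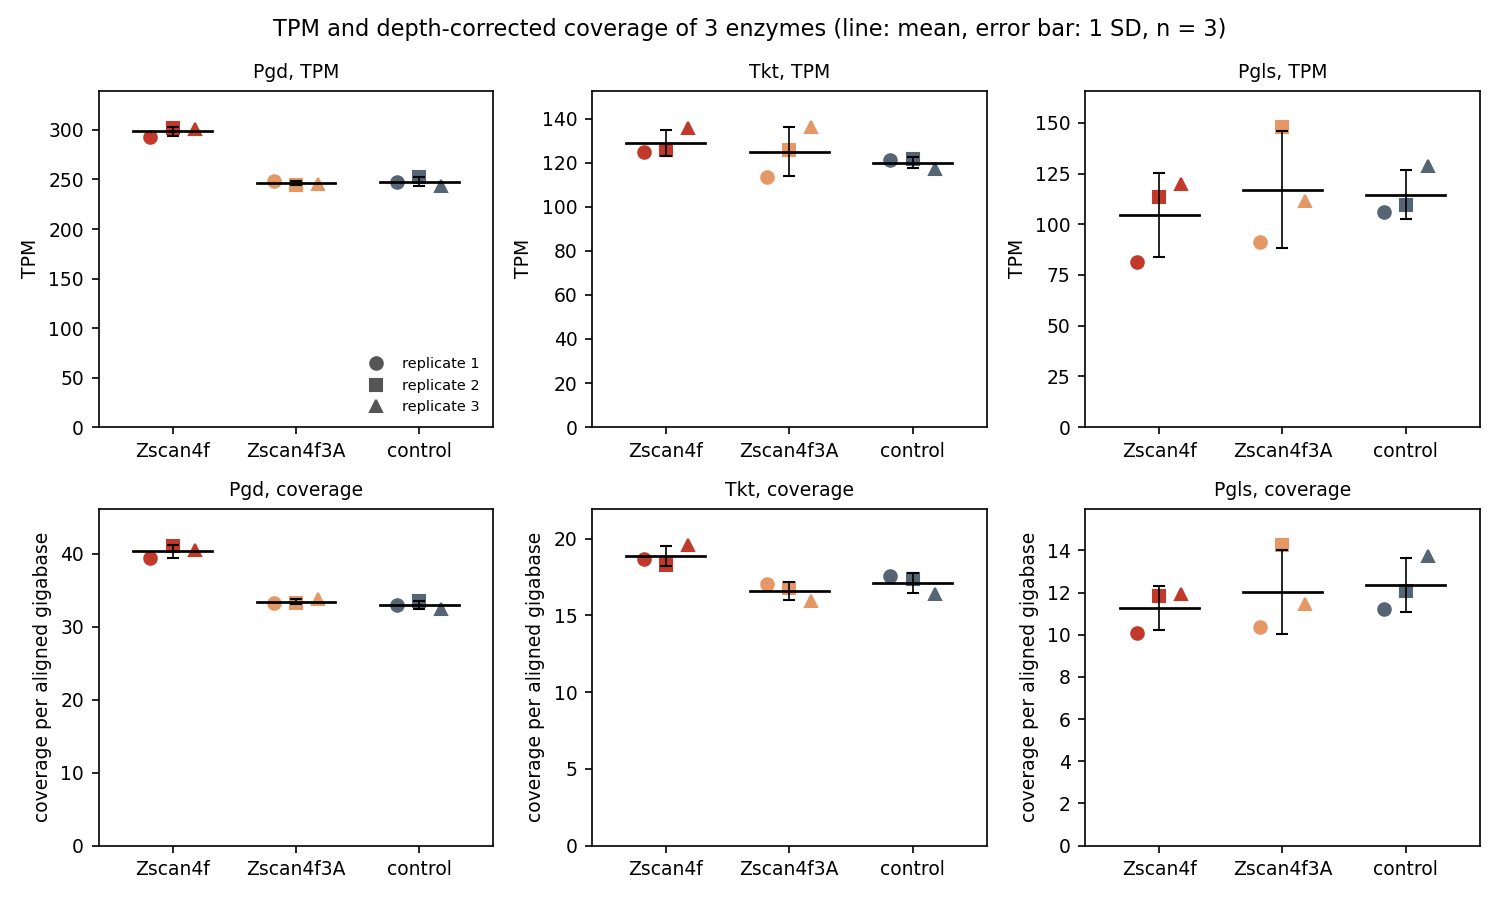
TPM (top row) and coverage per aligned gigabase (bottom row) of Pgd, Tkt and Pgls in each library, with the group mean as a line and 1 SD as error bar (n = 3), for Zscan4f, Zscan4f3A and control from left to right. In Pgd the Zscan4f libraries lie above the others in both units, while Tkt in Zscan4f3A replicate 3 is at 136 TPM, the highest of the 9 libraries, and at 16.0 in coverage, the lowest.

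The promoters of the 3 enzymes called higher with Zscan4f than in control are shown, and whether these genes share a regulator was not tested. Each runs from 250 bases before to 50 after the RefSeq start on GRCm38.p6, written 5′ to 3′ on the gene's strand: Pgd at chr4:149166656-149166955 (minus), Taldo1 at chr7:141391910-141392209 (plus) and G6pdx at chrX:74428831-74429130 (minus). The starts lie 66, 39 and 314 bases from the gene starts in the files for Pgd, Taldo1 and G6pdx. Capitals mark matches, on either strand, to the words searched.
Pgd: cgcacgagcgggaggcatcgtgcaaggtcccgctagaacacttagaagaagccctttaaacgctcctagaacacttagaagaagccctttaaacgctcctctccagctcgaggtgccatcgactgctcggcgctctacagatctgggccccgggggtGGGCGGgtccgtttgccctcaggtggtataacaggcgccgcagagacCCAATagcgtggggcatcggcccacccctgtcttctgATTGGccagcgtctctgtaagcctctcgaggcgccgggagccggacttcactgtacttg
Taldo1: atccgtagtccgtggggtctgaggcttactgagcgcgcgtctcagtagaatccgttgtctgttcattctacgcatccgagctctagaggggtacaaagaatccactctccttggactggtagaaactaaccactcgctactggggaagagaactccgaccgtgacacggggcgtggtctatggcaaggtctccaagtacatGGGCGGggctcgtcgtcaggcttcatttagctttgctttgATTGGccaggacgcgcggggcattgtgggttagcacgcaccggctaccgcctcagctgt
G6pdx: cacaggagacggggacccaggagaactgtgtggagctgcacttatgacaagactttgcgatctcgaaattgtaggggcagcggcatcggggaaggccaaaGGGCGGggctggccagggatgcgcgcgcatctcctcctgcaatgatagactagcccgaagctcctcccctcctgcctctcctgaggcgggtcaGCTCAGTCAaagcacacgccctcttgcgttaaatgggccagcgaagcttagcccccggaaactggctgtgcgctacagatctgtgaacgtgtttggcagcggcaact

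The GC box GGGCGG, present in 35.7% of 32851 mouse promoters of the same length, stood in all 7 enzyme promoters, with 5 matches in that of Tkt. The 7 promoters were 56.7% (Taldo1) to 67.3% (Pgls) G and C, against a median of 52.7% over all promoters. The 35.7% is not matched for this. The CCAAT box, in 37.4% of promoters, matched in Pgd at 46 and 9 bases before the start, in Taldo1 at 9 bases before it and in Rpe after it. The antioxidant response element core TGACNNNGC, in 12.4% of promoters, matched in G6pdx alone of the 7, at 57 bases before the start, where the promoter reads GCTCAGTCA on the gene's strand. The E-box CACGTG (7.2% of promoters) and the octamer ATGCAAAT (1.7%) matched in none of the 7. The word TGCACAC, reported to be bound by Zscan4 proteins and present in 4.4% of promoters, matched in Rpia alone, 168 bases before its start. No match overlapped that of another word, and in Tkt a pair of GC boxes shared 1 base. The longest run of bases common to the Pgd and Taldo1 promoters was TGATTGGCCAG, which holds the CCAAT box in reverse, begins 11 bases before the start in both and occurs in 0.27% of all promoters. The longest run common to Pgd and G6pdx was CTACAGATCTG, of the same length, which begins 116 bases before the start in Pgd and after the start in G6pdx and occurs in 0.05% of promoters. For Taldo1 and G6pdx the longest was GGGCGGGGCT, of 10 bases, which occurs in 3.0% of promoters. These runs were picked as the longest of each pair, so how rare they are is no test of a shared origin or use. A match is a description of letters and not of a bound site.

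Of 14 listed genes that border the pathway, 10 were tested, with 2 higher and 1 lower with Zscan4f than in control, against 8.74% higher and 9.71% lower over all genes tested. Their median log2 fold change was 0.04. With Zscan4f3A against control 0 of the 10 were called, against 0.0316% of all genes tested. Prps1, which turns ribose 5-phosphate into the nucleotide precursor PRPP, had 22.9, 22.7 and 23.4 TPM with Zscan4f, 19.0, 19.4 and 18.7 TPM with Zscan4f3A and 17.6, 18.2 and 17.9 TPM in control. Its Zscan4f libraries lay above all others, by 0.35 ± 0.05 over control on the log2 scale (limma adjusted p = 0.00132) and by 0.26 ± 0.05 over Zscan4f3A (adjusted p = 0.00732). Tigar, a fructose bisphosphatase that favours entry of glucose 6-phosphate into the pathway, had 21.8, 19.9 and 21.6 TPM with Zscan4f, 17.6, 17.3 and 18.0 TPM with Zscan4f3A and 16.1, 16.7 and 16.3 TPM in control. It rose by 0.34 ± 0.06 over control on the log2 scale (limma adjusted p = 0.00304) and by 0.24 ± 0.06 over Zscan4f3A (adjusted p = 0.02). The call of Tigar over Zscan4f3A was lost in 6 of 21 alternatives, among them the fit of only these 2 groups (0.0522) and those without Zscan4f replicate 1 (0.0682) or 3 (0.0726), or Zscan4f3A replicate 1 (0.0551) or 2 (0.0631).

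Shpk, the kinase that feeds sedoheptulose into the non-oxidative arm, was the bordering gene that fell, with 10.1, 10.6 and 9.4 TPM with Zscan4f, 11.6, 11.8 and 11.9 TPM with Zscan4f3A and 12.2, 13.1 and 12.1 TPM in control. The log2 fold change of -0.29 ± 0.07 against control (limma adjusted p = 0.0173) passed the threshold except without control replicate 2 (0.0642) or Zscan4f replicate 3 (0.0641). Prpsap2, which binds PRPP synthetase, had 23.0 ± 0.965 TPM with Zscan4f, 19.6 ± 0.833 TPM with Zscan4f3A and 24.3 ± 1.21 TPM in control. It was higher with Zscan4f than with Zscan4f3A by 0.22 ± 0.06 (limma adjusted p = 0.0448), a call that 13 of 21 alternatives ended, leaving out any of the 9 libraries among them (adjusted p of 0.0517 to 0.137). Together with Prps1 and Tigar it made 3 of 10 bordering genes called higher in that comparison, with 0 lower. Over all genes tested, 7.48% were called higher and 7.64% lower there.

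The other bordering genes gave no call against control. H6pd, which runs the first oxidative steps inside the endoplasmic reticulum, had 17.1, 17.0 and 19.6 TPM with Zscan4f, 22.2, 8.0 and 22.3 TPM with Zscan4f3A and 23.4, 21.9 and 22.1 TPM in control. Its Zscan4f libraries all lay below its control libraries, and Zscan4f3A replicate 2 stood far from every other library. The difference of -0.31 ± 0.32 between Zscan4f and control did not pass (limma adjusted p = 0.577), and without that Zscan4f3A library the adjusted p was 0.0196. Dera, the deoxyribose-phosphate aldolase, had 18.7 ± 3.21 TPM with Zscan4f, 17.4 ± 0.624 TPM with Zscan4f3A and 15.9 ± 1.65 TPM in control, a difference of 0.21 ± 0.12 between Zscan4f and control (adjusted p = 0.294, and 0.0385 without Zscan4f replicate 1). The log2 differences between Zscan4f and control were 0.18 ± 0.19 in the ribokinase gene Rbks, 0.07 ± 0.08 in the gluconokinase gene Idnk, 0.01 ± 0.06 in the PRPP synthetase gene Prps2 and -0.25 ± 0.11 in Prpsap1. The adjusted p of Prpsap1 was 0.148 by limma, and it passed the threshold without Zscan4f3A replicate 3 (0.0287) and in the fit of only Zscan4f and control (0.0411). The copies and relatives G6pd2, Tktl1, Tktl2 and Prps1l1 did not reach the filter, with at most 0.208 TPM in any library.

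At the branch point, glucose uptake and early glycolysis, 12 of 14 listed genes were tested and 3 were higher with Zscan4f than in control, 0 lower, against 8.74% higher and 9.71% lower over all genes tested. Their median log2 fold change was 0.14. Pfkl, the liver isoform of phosphofructokinase, which commits fructose 6-phosphate to glycolysis, had 82.1, 83.9 and 83.9 TPM with Zscan4f, 57.7, 59.5 and 62.9 TPM with Zscan4f3A and 57.6, 60.9 and 54.7 TPM in control. The Zscan4f libraries stood clear of the rest, by 0.52 ± 0.05 over control on the log2 scale, or 1.44-fold (limma adjusted p = 0.00021). Among the 7 pathway enzymes the largest log2 fold change was the 0.27 of Pgd, and its difference from Pfkl was not tested. The glucose transporter gene Slc2a3 had 52.1, 50.2 and 116 TPM with Zscan4f, 39.7, 40.2 and 36.9 TPM with Zscan4f3A and 34.0, 36.0 and 29.8 TPM in control, with Zscan4f replicate 3 far above the others. Its log2 fold change of 1.00 ± 0.28 (limma adjusted p = 0.0367) lost the threshold in 10 of 21 alternatives, among them leaving out control replicate 1 (0.0864), 2 (0.0754) or 3 (0.107) or Zscan4f3A replicate 1 (0.0547) or 2 (0.0538), and was as low as 0.61. Pfkp, the platelet isoform of phosphofructokinase, had 43.8 ± 4.16 TPM with Zscan4f, 35.7 ± 1.89 TPM with Zscan4f3A and 32.7 ± 5.82 TPM in control (log2 fold change of 0.42 ± 0.12, limma adjusted p = 0.0402), with overlapping Zscan4f and control libraries and a call that 9 of 21 alternatives ended. These included leaving out control replicate 1 (0.125) or 2 (0.126), Zscan4f replicate 1 (0.115) or 3 (0.123) and Zscan4f3A replicate 1 (0.0532) or 2 (0.0562). Pfkfb2, a phosphofructokinase-fructosebisphosphatase, had 16.5 ± 1.19 TPM with Zscan4f, 19.6 ± 2.79 TPM with Zscan4f3A and 20.4 ± 0.603 TPM in control (adjusted p = 0.0747, and 0.0393 without Zscan4f3A replicate 2 or 0.0294 without replicate 3).

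Among 10 genes of other NADPH sources, 1 was higher with Zscan4f than in control and 0 lower, a share near the 8.74% called higher over all genes tested, and the median log2 fold change was -0.01. That gene was Idh2, the NADP-dependent isocitrate dehydrogenase of mitochondria, with 220.5, 234 and 217 TPM with Zscan4f, 179.6, 173 and 179 TPM with Zscan4f3A and 172, 179 and 173 TPM in control. The Zscan4f libraries lay above all others, and the rise over control was 0.36 ± 0.04 on the log2 scale, or 1.28-fold (limma adjusted p = 0.000353). Aldh1l2, a mitochondrial folate dehydrogenase that yields NADPH, had 14.8 ± 1.53 TPM with Zscan4f, 17.4 ± 0.256 TPM with Zscan4f3A and 17.7 ± 1.86 TPM in control (adjusted p = 0.116). The NAD kinase genes Nadk and Nadk2, which supply NADP+, had 105 ± 22.3 and 4.89 ± 0.450 TPM with Zscan4f, 113 ± 25.1 and 5.40 ± 1.19 TPM with Zscan4f3A and 129 ± 1.13 and 5.88 ± 0.536 TPM in control, with adjusted p of 0.278 and 0.331 for Zscan4f against control.

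Of 18 genes of the glutathione, thioredoxin and Nrf2 target list, most of which do not use NADPH themselves, 3 were higher and 3 lower with Zscan4f than in control. The median log2 fold change was 0.02, and over all genes tested 8.74% were higher and 9.71% lower. Gsr, the reductase that restores glutathione at the cost of NADPH, had 37.3 ± 1.26 TPM with Zscan4f, 27.5 ± 0.339 TPM with Zscan4f3A and 26.7 ± 0.824 TPM in control (log2 fold change over control of 0.47 ± 0.05, limma adjusted p = 0.000265). Gpx4, which clears lipid peroxides with glutathione, had 1011 ± 14.2 TPM with Zscan4f, 807 ± 15.3 TPM with Zscan4f3A and 825 ± 14.2 TPM in control, a rise of 0.29 ± 0.03 over control (adjusted p = 0.000174). The glutathione transferase genes Gstm1 and Gsta4 fell, by 1.33 ± 0.06 and by 0.41 ± 0.03 on the log2 scale (adjusted p = 4.97e-06 and 9.37e-05). Gstm1 stood at 21.2 ± 1.85 TPM with Zscan4f, 45.7 ± 1.20 TPM with Zscan4f3A and 54.6 ± 0.536 TPM in control. The other called genes, named after their values were seen, were the sulfiredoxin gene Srxn1, higher by 0.32 ± 0.05 (adjusted p = 0.00272), and the heme oxygenase gene Hmox1, lower with a log2 fold change of -0.37 ± 0.06 (adjusted p = 0.00265).

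In the list of lipid synthesis genes, drawn up for NADPH use although not every member spends NADPH, 7 of 12 were higher with Zscan4f than in control and 0 lower. The median log2 fold change of the list was 0.29. Over all genes tested 8.74% were called higher, with a median of -0.0029. Like the others, the list was chosen with earlier results of these data known. Sqle, the squalene epoxidase, had 160.3, 149 and 146 TPM with Zscan4f, 95.3, 96.3 and 111 TPM with Zscan4f3A and 92.1, 109.9 and 104 TPM in control. The Zscan4f libraries lay well above the others (0.57 ± 0.08 over control on the log2 scale, limma adjusted p = 0.00152). The lanosterol demethylase gene Cyp51 rose by 0.38 ± 0.04 (adjusted p = 0.000181). Nsdhl, a sterol dehydrogenase of the same route that reduces NAD(P)+ rather than spending NADPH, rose by 0.36 ± 0.04 (adjusted p = 0.000433). With Zscan4f3A against control, 0 of the tested genes in each of these 4 lists were called, against 0.0316% of all genes tested. So low a share leaves few calls for any list of this size.

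**Figure D4:**
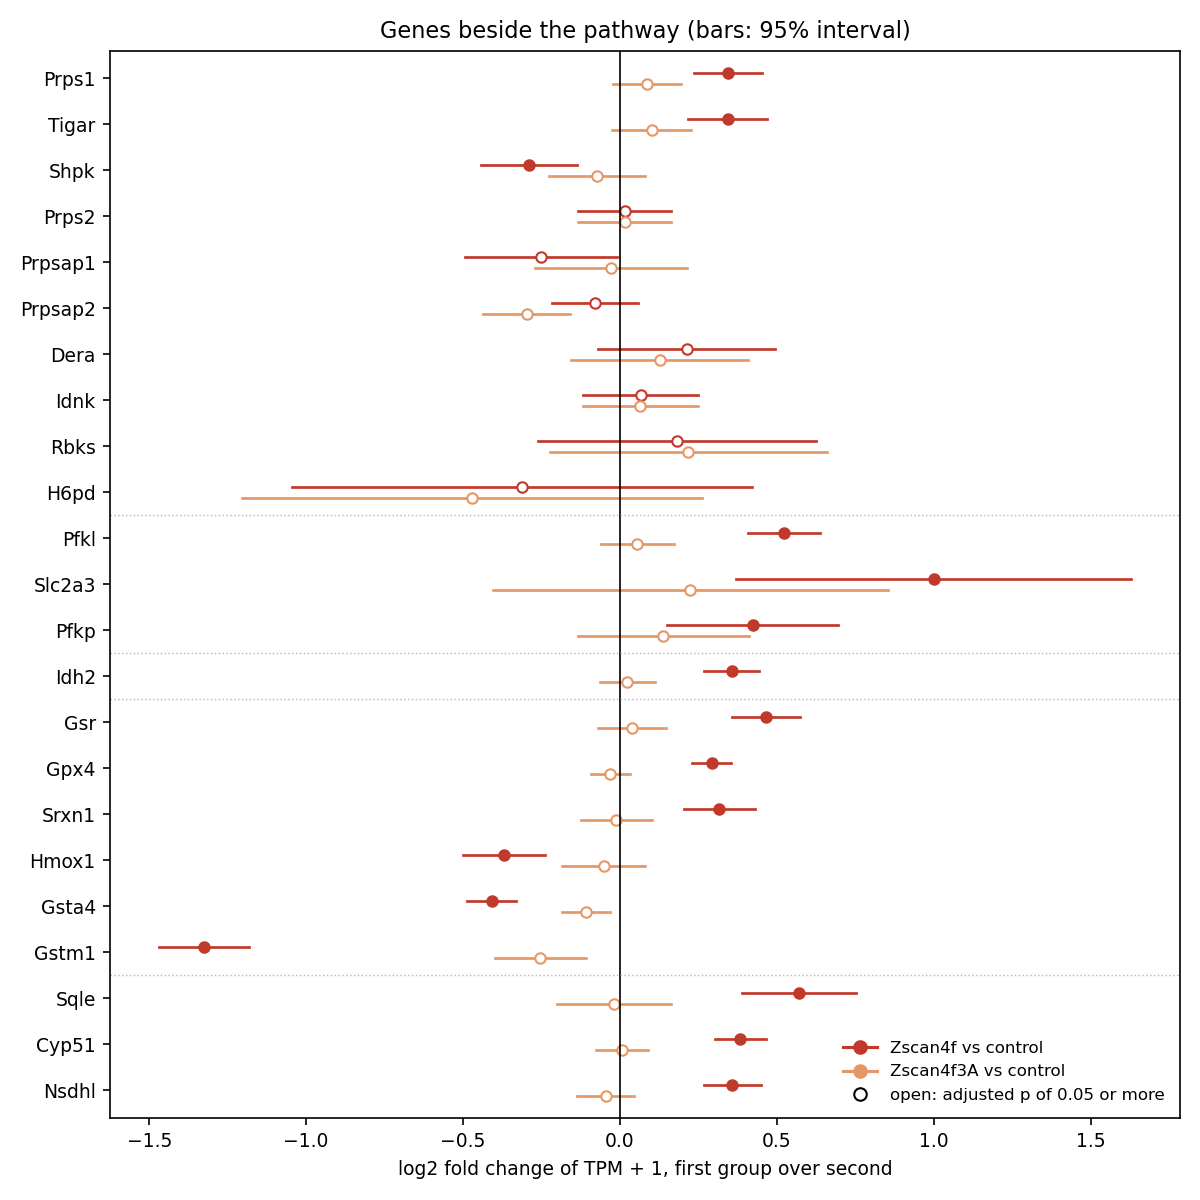
Log2 fold change of TPM + 1 in genes bordering the pathway, at its branch point, in other NADPH sources, in redox defence and in lipid synthesis (blocks from top to bottom), for Zscan4f against control and Zscan4f3A against control, with 95% intervals as bars and filled points for an adjusted p under 0.05. Filled points occur for Zscan4f alone, from -1.33 in Gstm1 to 1.00 in Slc2a3. Over all genes tested, 0.0316% were called with Zscan4f3A against control.

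By size, the called pathway enzymes were modest among the genes called higher. The median log2 fold change of all genes called higher with Zscan4f than in control was 0.38, above the 0.27 of Pgd, the 0.21 of Taldo1 and the 0.20 of G6pdx. Of the 15837 genes tested, 2922 were called, and 891 of these reached a fold change of 1.5 or more. Of the 7 enzymes, 3 were called and 0 reached it. So low a share over all genes tested leaves few such genes in any list of this size.

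Genes with the level pattern most like that of each called enzyme were sought over the 9 libraries among 11531 genes, as the smallest root mean square difference of centred log2(TPM + 1). For Pgd the nearest was Ctsz, a lysosomal cathepsin, at 0.0132, with 558 ± 7.96 TPM with Zscan4f, 466 ± 6.68 TPM with Zscan4f3A and 465 ± 12.7 TPM in control. Next came the mitochondrial aspartate aminotransferase gene Got2 (0.0179) and Gpx4 (0.0222). For G6pdx the nearest were Os9 (0.0243), Ap2a2 (0.0247) and Ppp1r7 (0.0264), and for Taldo1 Auh (0.0251), Naa15 (0.0323) and Slc9a3r1 (0.0329). None of the 7 enzymes was among the 3 nearest to another.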

How the data were processed

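RNA was measured in 9 libraries, 3 per group, grouped by their titles. Per the submitters' processing notes, reads were aligned with HISAT2 2.1.0 and quantified with StringTie, and the sources used here give no build, annotation or strand setting. The deposited TPM values and the deposited FPKM values are the authors' abundances per transcript length, and the coverage deposited by the authors is mean read depth, uncorrected for sequencing depth. The files hold no counts, so no counting intervals are given, and aligned sequence per library is an estimate, the most frequent coverage:FPKM ratio. Of 54986 gene IDs, 54079 were found in GENCODE M21 and 97.7% of these, with all 7 enzymes, had identical coordinates, so GRCm38 is used. The 15 repeated gene IDs were summed, and none of the 36 library pairs was identical.

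The 15837 genes that reached a TPM of 1 in 3 or more libraries were fitted as log2(TPM + 1), a scale that understates changes of low genes, with limma 3.58.1 in R 4.3.3 (group means over all 9 libraries, empirical Bayes with trend). The 3 two-sided comparisons share libraries. The call was an adjusted p (Benjamini-Hochberg, over every gene tested in the comparison) under 0.05. Named genes were the 7 enzymes, 14 bordering genes, up to 4 genes of smallest p in Zscan4f against control from each of 4 lists, and the 3 genes nearest in pattern to each called enzyme (mean TPM of at least 5). Of the genes so named, 1 is not reported here. The members and lists were chosen with earlier results of these data known. Nadk2 and Txnrd2, which have a further ID on a patch scaffold, were taken from the chromosome. Promoters are from RefSeq, matched by symbol for all 7 enzymes. The fit was tested on simulated data for Zscan4f against control. It recovered 14.9% of 67 genes with a true log2 change of 0.25, 65.7% of 67 at 0.5 and 93.9% of 66 at 1, with 6 unchanged genes called. Far fewer genes were changed there than were called in the data, so these shares do not carry over directly. Small changes can be missed. The fit was repeated on FPKM, with a pseudocount of 0.1, with the filter at TPM of 5 or left out, with quantile normalization or median-of-ratios scaling, on 2 groups, with no trend, a robust prior or the replicate block, on protein-coding genes alone, with each library left out and, chosen after seeing the data, on coverage in place of TPM. Tables and figures were made with matplotlib 3.10.9, numpy 2.4.6 and pandas 2.3.3 under Python 3.11.15.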

Additional observations from a re-analysis of the deposited data

How the results depend on the processing

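With Zscan4f against control, 3 of 7 enzymes were called in every alternative except without the filter on low values, which called 2. The 0 of 7 called with Zscan4f3A against control held in all 21. Zscan4f against Zscan4f3A called 2 enzymes, but 1 without the filter, with quantile normalization, with a fit of 2 groups or without the trend. It called 3 with the filter at TPM of 5 or on protein-coding genes alone, and 4 on coverage. With a library left out it called 1 to 2 (1 without Zscan4f replicate 1, 2 or 3 or Zscan4f3A replicate 3). Over all genes, Zscan4f3A against control called 5, with 3 without the filter and 1 to 16 with a library left out (1 without control replicate 3, 8, 9 and 10 without control replicate 1, control replicate 2 and Zscan4f replicate 3, and 16 without Zscan4f3A replicate 3). Zscan4f against Zscan4f3A called 2395 over all genes, with 1496 without the filter and 1574 to 2168 with a library left out (1574 without Zscan4f replicate 3).

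Uncalled differences that turned sign in Zscan4f3A against control were Pgd on FPKM (0.0142) and with median-of-ratios scaling (0.0011), Pgls with quantile normalization (-0.002) and on coverage (-0.0664), and Tkt on coverage (-0.0644). With a library left out, the log2 differences ranged as follows. In Zscan4f3A against control they were -0.0233 to 0.0044 in Pgd, -0.177 to 0.1701 in Pgls, -0.0035 to 0.0636 in Taldo1 and -0.0049 to 0.1252 in Tkt. In Zscan4f against control they were -0.2494 to 0.0287 in Pgls, -0.0106 to 0.0312 in Rpe, -0.0045 to 0.1196 in Idnk and -0.022 to 0.0698 in Prps2. In Zscan4f against Zscan4f3A they were -0.3131 to 0.034 in Pgls, -0.0468 to 0.1449 in Rpia and -0.0227 to 0.1074 in Tkt. The cause was not tested.

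Same-numbered libraries of different groups correlated in their deviations at -0.079 to 0.053 and others at -0.048 to 0.054, and 5 of 9 libraries correlated best with their own number. The ranges overlapped, and these values do not settle whether equal numbers mark paired libraries. With the replicate block, Zscan4f against control called 3 enzymes and 2504 genes in all, Zscan4f against Zscan4f3A 2 enzymes and 1883 genes, and Zscan4f3A against control 0 enzymes and 1 gene. Groups of 3 limit what could be called: an interval as wide as that of Pgls cannot show a change of the size seen in Pgd.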
